A study of Mus musculus with 7 samples.

Results

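Classical monocytes of the pooled blood and heart library were examined. They were chosen by measured values. A cell barcode needed 200 or more detected genes, no more than 10% of its unique molecular identifiers (UMIs) in mt- genes, a highest hashtag count of at least 10 and at least 3 times the second, a Ly6G antibody count of 4 or lower, 5 or more UMIs of Ly6c2 and a UMI of Ccr2 or Csf1r. These rules kept 1785 of the 11826 barcodes of the pool. Of the 11826 barcodes, 11592 passed the gene and mt- rules, 10329 of those carried 1 clear hashtag, and 3627 of those were Ly6G-low. Of the 3627 Ly6G-low cells, 1794 had at least 5 Ly6c2 UMIs, and 9 of these lacked both Ccr2 and Csf1r. The 1842 other Ly6G-low cells and the 6702 Ly6G-high cells of the same hashtags served as comparisons.

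The cells came from C57BL6/J mice of 8 to 10 weeks, in a model in which a coronary artery is tied off for good and the heart muscle behind it infarcts. The pool drew on mice of these conditions: 3 mice without surgery, 3 mice on day 1 and 3 mice on day 3 after a sham operation, and 5 mice on day 1 and 5 mice on day 3 after infarction. Blood was taken from all of them, and ischemic heart tissue from the animals with infarcts of day 1 and day 3. Viable cells positive for CD11b and negative for Ter119, B220 and NK1.1 were sorted, each sample carried 1 of 7 hashtag antibodies, and the samples were pooled into 1 library together with 14 antibodies against surface proteins. The sources used here pair no hashtag with a condition or a tissue, so the hashtags are described by number and no condition is compared. The mice behind a hashtag cannot be told apart in the library, the pool is 1 library, and no p-value is given.

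Classical monocytes leave the bone marrow through the chemokine receptor CCR2, circulate with high surface Ly6C, and enter injured tissue early. In the infarcted heart they are known to bring in proteases and inflammatory mediators and to give rise to macrophages. Nonclassical monocytes have little Ly6C, express Nr4a1, Ace and Treml4, and patrol the vessel wall. Type I interferon acts on such cells through a promoter element, the interferon-stimulated response element, that the factor complex ISGF3 binds.

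That element is shown here because, in the members, most tested interferon-stimulated genes were highest in Hashtag 1 and most were lowest in Hashtag 4. The sequences are the 140 bases before the start of 3 of these genes, from RefSeq on GRCm38.p6, written 5′ to 3′ on the strand of the gene, with matches to the element, read as GAAA, any 2 bases and GAAA again on either strand, in capitals. Isg15, a ubiquitin-like modifier, lies on the minus strand with the window at chr4:156200819-156200958. Ifit1, an RNA-binding antiviral protein, lies on the plus strand with the window at chr19:34640749-34640888. Bst2, a membrane tether of budding viruses, lies on the minus strand with the window at chr8:71537473-71537612.
Isg15: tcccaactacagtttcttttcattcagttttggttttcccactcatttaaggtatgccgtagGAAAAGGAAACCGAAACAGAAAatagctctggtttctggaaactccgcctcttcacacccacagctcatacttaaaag
Ifit1: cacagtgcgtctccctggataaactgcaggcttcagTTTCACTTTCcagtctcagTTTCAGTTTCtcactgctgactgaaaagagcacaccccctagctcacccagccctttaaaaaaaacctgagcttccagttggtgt
Bst2: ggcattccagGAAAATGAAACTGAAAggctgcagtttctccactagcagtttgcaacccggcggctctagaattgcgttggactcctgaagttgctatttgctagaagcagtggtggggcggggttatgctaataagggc
Isg15 held 3 overlapping matches, Ifit1 held 2 separate ones and Bst2 held 2 overlapping ones. Of the 26 interferon-stimulated genes listed, 20 matched a RefSeq promoter window of 300 bases (250 before to 50 after a start), and 10 of the 20 held the element in at least 1 window. It stood in 11 of their 25 windows (44%), against 3.44% of all 32851 windows. The 3 genes shown are among the 10 with the element. Ifit1 was under the level limit used below to compare hashtags. Irf7 and Ifi204, which also differed between Hashtags 1 and 4, were not among the 10. A match describes these letters and shows no binding.

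The members' own defining values were as follows, as a description. The median Ly6c2 count per cell was 17, 20, 18, 14, 14, 12 and 13 UMIs in Hashtags 1 to 7, against a median of 0 in the other Ly6G-low cells of every hashtag. Ccr2, the receptor for Ccl2, had a median of 23 to 34 UMIs per member, and Csf1r, the receptor for the growth factor M-CSF, a median of 5 or 6. Ly6c2 encodes the Ly6C surface protein and has a near-identical neighbour, Ly6c1, so the split of reads between the pair is uncertain. Ly6c1 had 0 to 12 UMIs per hashtag in the members. Around the threshold the cells did not part sharply. The 215 Ly6G-low cells with 3 or 4 Ly6c2 UMIs, just outside, had a median Ly6C antibody count of 140, and the 201 with 5 or 6, just inside, one of 154. Levels are given as CPM, a gene's UMIs per 1000000 UMIs of the summed cells. Chil3 was at 4609 CPM just outside and 4693 CPM just inside, F13a1 at 738 and 906 CPM, and the MHC class II gene H2-Ab1 at 648 and 454 CPM.

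Members made up 49.2% of the Ly6G-low cells (95% Clopper-Pearson interval 47.6% to 50.9%, counting error only, as for all intervals here). In Hashtag 1 they were 535 of 785 Ly6G-low cells, or 68.2% (64.8% to 71.4%). Hashtag 3 followed with 327 of 588, or 55.6% (51.5% to 59.7%). The remaining hashtags lay lower: 250 of 587 (42.6%) in Hashtag 2, 259 of 633 (40.9%) in Hashtag 4, 171 of 461 (37.1%) in Hashtag 5, 118 of 272 (43.4%) in Hashtag 6 and 125 of 301 (41.5%) in Hashtag 7. The intervals of Hashtags 1 and 3 overlapped neither each other nor any other hashtag's, and those of Hashtags 2, 4, 5, 6 and 7 overlapped one another. Nonclassical comparison cells were Ly6G-low cells with at most 4 Ly6c2 UMIs, at least 1 Csf1r UMI and at least 2 UMIs of Ace, Treml4 and Cd300e together. They were 13.1%, 41.6%, 27.0%, 40.9%, 38.4%, 12.5% and 12.0% of the Ly6G-low cells in Hashtags 1 to 7. In Hashtags 2, 4 and 5 the classical and nonclassical intervals overlapped, and in Hashtags 1, 3, 6 and 7 the classical share was higher. This pattern depended on the cutoff. With at least 10 Ly6c2 UMIs per 10000 UMIs in place of 5 UMIs, the members were 45.2%, 27.4%, 37.6%, 19.7%, 17.4%, 14.0% and 16.6% in Hashtags 1 to 7. The intervals of Hashtags 1 and 3 again overlapped no other, that of Hashtag 2 then lay above those of Hashtags 4 to 7, the classical share was below the nonclassical in Hashtags 2, 4 and 5, and the classical and nonclassical intervals overlapped in Hashtags 6 and 7. The share of Ly6G-low cells was set at the sort, where Ly6G+ and Ly6G- cells were adjusted to about equal parts, so only shares within the Ly6G-low cells are given.

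**Figure D1:**
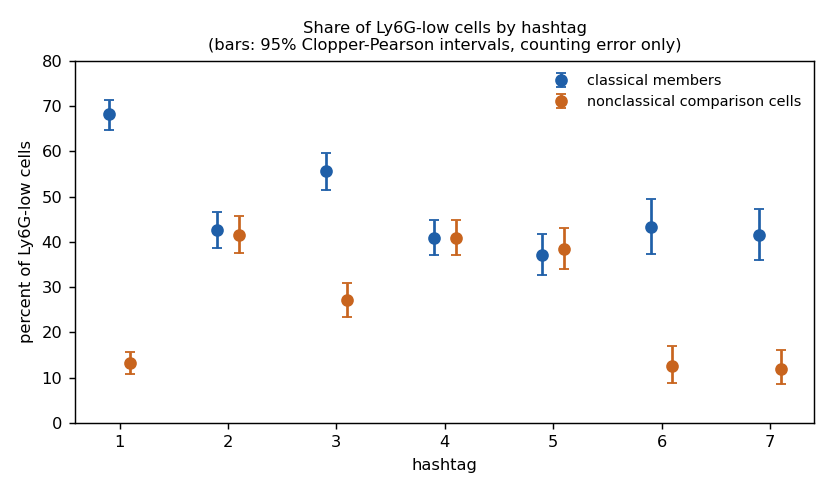
Share of Ly6G-low cells (y axis, percent) by hashtag (x axis) for the classical members and the nonclassical comparison cells, with 95% Clopper-Pearson intervals as bars. Classical members are 68.2% in Hashtag 1 and 55.6% in Hashtag 3, and 37.1% to 43.4% in the other hashtags.

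Depth was high and similar in the members. Their median was 13016 to 16018 UMIs per cell across hashtags, against 6384 to 13496 in the other Ly6G-low cells and 3231 to 3909 in the Ly6G-high cells. The members' UMIs summed to between 1866799 (Hashtag 6) and 7102780 (Hashtag 1) per hashtag. Of the pool's barcodes, 28 also occurred in the CD11b+ heart pool of the series, 1 of them a member, and none in the 5 CD45+ heart libraries. Barcodes with several hashtags were left out by the hashtag rule, and doublets within 1 hashtag remained: the doublet caller Scrublet marked 1 of 11592 barcodes (0.00863%), which is too few for the caller to have worked.

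Surface Ly6C went with the transcript that chose the cells. The Ly6C antibody had a median of 232, 208, 204, 194, 177, 183 and 175 UMIs per member in Hashtags 1 to 7. In the other Ly6G-low cells it was 44, 35, 37, 41, 36, 70.5 and 55, so the members' median was 2.60 to 5.93 times higher in 7 of 7 hashtags. Of all members 92.5% had at least 100 Ly6C antibody UMIs, against 18.9% of the other Ly6G-low cells. As a percent of a cell's antibody UMIs, Ly6C was also higher in members in 7 of 7 hashtags.

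CD115 and CD49d separated the cells less than Ly6C. CD115, the protein of Csf1r, and CD49d, the integrin alpha 4 chain, both had higher median counts in members in 7 of 7 hashtags, by 1.14 to 2.13 times and 1.03 to 1.40 times. As a percent of antibody UMIs each was higher in only 2 of 7. The IA-IE antibody, which binds MHC class II, had medians of 3 or 4 UMIs in members, near those of the Ly6G-high cells (3 or 4). In the other Ly6G-low cells its medians were 3.5, 4, 3, 4, 3, 6 and 6 in Hashtags 1 to 7. As counts the members' median was lower in 3 of 7 hashtags and higher in 1, and as percent it was lower in 7. CD11b, the sorted integrin, had a median of 23 to 45 UMIs in members, highest in Hashtag 7. CD54 (ICAM-1) ran from 21 to 27 and was at 27 in Hashtags 6 and 7. The medians of CXCR4, Msr1, CD64, FCeRIa, CCR3 and SiglecF were higher in members in 0 to 4 of 7 hashtags as counts and in 0 of 7 as percent.

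**Figure D2:**
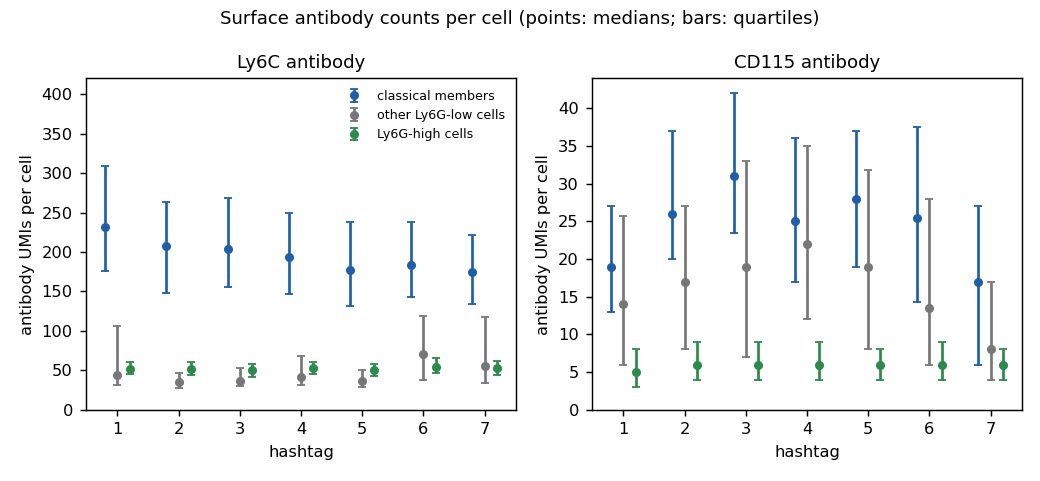
Antibody UMIs per cell (y axis) by hashtag (x axis) for Ly6C and CD115; points are medians and bars the quartiles of the members, the other Ly6G-low cells and the Ly6G-high cells. The members' Ly6C medians lie between 175 and 232, above both other groups in every hashtag, and their CD115 medians between 17 and 31.

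UMIs were then summed per gene over the members and over the other Ly6G-low cells of each hashtag. A gene was called higher or lower when the log2 ratio, with 0.5 UMI added, passed 2-fold the same way in all 7 hashtags. Since the rule split these same cells on Ly6c2, this contrast is a description. The rule genes were left out of the counts. Of 1484 genes with a mean of at least 100 CPM, 4 were higher in members (0.27%) and 16 were lower (1.08%), and the median gene's log2 ratio was 0.02.

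Among the 4 higher genes were F13a1, Mgst1 and C3. F13a1, the A chain of the clotting factor that crosslinks fibrin, stood at 1402, 1233, 1088, 1386, 1267, 1210 and 993 CPM in Hashtags 1 to 7. In the other Ly6G-low cells it ranged from 81.4 to 459 CPM, so the groups did not overlap, and the members were 2.502 to 15.1 times higher. Mgst1, a membrane glutathione transferase, was 2.36 to 4.39 times higher and C3, the central complement component, 2.07 to 4.34 times. With a cutoff of 10 Ly6c2 UMIs F13a1 was the only gene called, and with 10 per 10000 UMIs none was.

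The next genes by the same ranking missed 2-fold in at least 1 hashtag. Ethe1, a mitochondrial sulfur dioxygenase, had a lowest ratio of 1.99, Hopx 1.92, Chil3 1.85, Hp (haptoglobin) 1.80 and Vcan 1.76; AI839979 had 1.94. Chil3, a secreted chitinase-like protein of classical monocytes, was at 715 to 3684 CPM in the other Ly6G-low cells and higher in the members of each hashtag. Vcan, the matrix proteoglycan versican, was 0.81 to 3.57 higher on the log2 scale. Fn1, fibronectin, was at 1564 to 2213 CPM in members, and its log2 ratio ran from 3.57 in Hashtag 2 to 0.30 in Hashtag 6 and -0.12 in Hashtag 7. Of the 18 classical monocyte genes listed beyond the rule, 17 were tested, with a median log2 ratio of 1.09. Of these, 3 were called higher (F13a1 and Mgst1 among them) and none lower, against 0.27% and 1.08% of all tested genes.

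The 16 lower genes came from several kinds of cell. Nonclassical monocyte genes were among them. Ace, which makes angiotensin II, was at 4.82 to 33.7 CPM in members and 59.0 to 617 CPM in the others, and Treml4, a receptor for dying cells, at 19.3 to 24.1 and 52.5 to 372 CPM. Spn (CD43), Ear2, Fcgr4, Hfe and Eno3 were lower as well, and each was higher in the nonclassical comparison cells than in the members. Eno3, the muscle form of enolase, had 2.51 to 9.38 CPM in members, 28.4 to 496 CPM in the other cells and 116 to 671 CPM in the nonclassical cells. Cd9, a tetraspanin, had the widest gap in its weakest hashtag, with 6.76 to 28.9 CPM against 136 to 398 CPM (8.10 to 50.2 times lower).

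MHC class II transcripts were lower in the members than in the other Ly6G-low cells. Of 9 listed genes, 6 were tested, 4 were called lower and none higher, with a median log2 ratio of -2.63. Among all 1484 tested genes 1.08% were called lower and 0.27% higher. H2-Ab1 was at 154, 206, 159, 143, 212, 199 and 197 CPM in Hashtags 1 to 7, against 604 to 2722 CPM in the other cells, with the highest of these in Hashtag 6. H2-Aa and H2-Eb1 were lower by factors of 3.07 to 15.0 and 3.38 to 24.3, and Cd74, the invariant chain, by 2.83 to 9.32. The transcripts sat in few members: H2-Ab1 UMIs were found in 21 to 111 cells per hashtag, and the richest cell held 11% to 31% of them. When the deepest 10% of members and of other cells were left out, the 4 calls ended, with the weakest log2 ratios at -0.66 for Cd74, -0.58 for H2-Eb1, -0.41 for H2-Aa and -0.08 for H2-Ab1.

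Further lower genes are known from neutrophils, antibody-secreting cells or macrophages. Retnlg, a neutrophil-rich resistin-like gene, was at 21.8 to 123 CPM in members and 115 to 1011 CPM in the other cells, and Ifitm1, a membrane antiviral protein, at 44.5 to 362 and 308 to 948 CPM. Jchain, the joining chain of secreted antibodies, had 0 to 7 UMIs per hashtag in the members. In the other cells it ranged from 0.557 to 754 CPM. At 0.557 CPM, in Hashtag 6, both groups were under 3 UMIs, so the fitted ratio there carries no information. Apoe, a lipid carrier, was 2.07 to 4.08 times lower in members but remained at 957 to 1941 CPM.

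**Figure D3:**
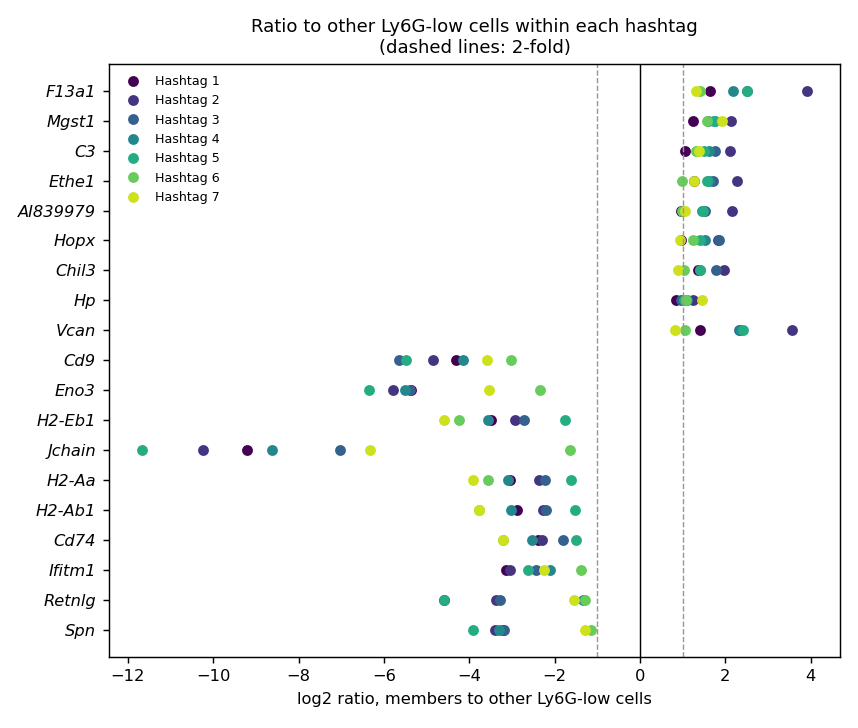
Log2 ratio of the members to the other Ly6G-low cells (x axis) for named genes with the highest and lowest ratios in their weakest hashtag (y axis), 1 point per hashtag, with dashed lines at 2-fold. All 7 points of F13a1, Mgst1 and C3 lie right of 2-fold, and the points of Jchain spread from -11.67 to -1.64 in Hashtags 5 and 6; the members held 0 to 7 UMIs per hashtag and the other cells 0.557 to 754 CPM.

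Markers of other cell types were checked in the members as summed CPM over each list. The 15 neutrophil markers summed to 1237 CPM in Hashtag 1 and 10633 CPM in Hashtag 6, with a median of 1697, against 67251 to 216947 CPM in the Ly6G-high cells. Without 1 barcode of Hashtag 6, described with Camp, the Hashtag 6 sum was 3347 CPM and that of Hashtag 4, at 4896 CPM, was the highest. The 11 classical monocyte markers summed to 17073 to 20453 CPM, above the 6127 to 11849 CPM of the other Ly6G-low cells. The 12 nonclassical markers summed to 780 to 1222 CPM in members and 1004 to 6851 CPM in the others, and the 12 macrophage markers to 1521 to 3090 and 3167 to 6993 CPM. The 10 dendritic cell markers stood at 43.9 to 117 CPM. B cell markers (6 genes) summed to 95.4 to 215 CPM, T cell markers to 0 to 18.1, NK cell markers to 0 to 43.7, platelet markers to 1.28 to 55.7 and erythroid markers to 0.502 to 21.8 CPM. The basophil and mast cell, eosinophil, endothelial and cardiomyocyte lists were each at 1.55 CPM or lower, and the 5 fibroblast markers were at 0 in all members, as were Ncr1 of NK cells, Alas2 of red cell precursors and Myh6 of cardiomyocytes.

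The 7 hashtags were then compared within the members. A gene was called when its level lay 2-fold or more from the median of the 7 hashtags. Since all 7 comparisons share that median, their calls are not independent of each other, and each hashtag is 1 sum with no replicate. Of 1433 genes tested, 3 were above (0.209%) and 7 below (0.488%) in Hashtag 1. Hashtag 2 had 1 above (0.0698%) and 3 below (0.209%), Hashtag 3 had 0 above (0%) and 7 below (0.488%), and Hashtag 4 had 4 above (0.279%) and 3 below (0.209%). Hashtag 5 had 1 above (0.0698%) and 0 below (0%). Hashtag 6 had 15 above (1.05%) and Hashtag 7 had 20 above (1.4%), both with 0 below (0%). In all, 29 of the 1433 genes (2.02%) were called in at least 1 hashtag in either direction, and the counts of listed genes called stand beside that share. Nearly all of the 1433 genes thus lay within 2-fold of their median in every hashtag, and smaller differences were not counted. Over the 1433 genes the root mean square log2 difference was smallest between Hashtags 2 and 4 (0.15, with or without the barcode described next). Without that barcode it was largest between Hashtags 3 and 7 (0.49), followed by Hashtags 3 and 6 (0.46), and was 0.23 between Hashtags 6 and 7; with it these values were 0.49, 0.56 and 0.35. Hashtags 6 and 7 had the fewest members (118 and 125), and counting error is widest there.

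One gene in these counts rests on a single barcode. Camp, the cathelicidin of granulocyte precursors, was at 880 CPM in Hashtag 6 because 1 barcode held all 1643 UMIs, and had 0 to 3 UMIs in every other hashtag. It passed the filter only through that barcode, which also held 1014 UMIs of Ngp and 273 of Ltf, further granule genes, among 26067 UMIs in all. That barcode met the rule with 15 Ly6c2 UMIs, 1 Csf1r UMI and no Ccr2, and had a Ly6G antibody count of 1. Without it no hashtag had a Camp call, Hashtag 6 had 13 genes above its median and Hashtag 7 had 19. No value of Camp is read further. Of the 29 genes called, 7 had a mean under 100 CPM once their highest hashtag was left out, Camp, Ccl2, Fabp5, Clec4e, Ifitm1, Aif1 and Lrg1, so for them the filter itself favoured a high value there.

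Thbs1 and Ccl2 were highest in Hashtags 6 and 7. Thbs1, the matrix protein thrombospondin 1, was at 55.2, 15.8, 16.5, 17.5, 51.9, 589 and 553 CPM in Hashtags 1 to 7. Hashtags 6 and 7 were 11.3 and 10.6 times above the median, with Poisson intervals of 555 to 625 and 521 to 587 CPM, against 55.2 CPM at most elsewhere. The reads came from 56 of 118 and 65 of 125 cells, with 14% and 16% in the richest cell. After each cell was thinned to 2000 UMIs, a Thbs1 UMI was found in 22.9% (15.7% to 31.5%) of members in Hashtag 6 and 25.6% (18.2% to 34.2%) in Hashtag 7, and in 1.83% to 9.94% in the others. Unthinned shares were 47.5% and 52.0% against 13.8% to 28.1%. Ly6G-high cells of the same hashtags moved the same way, with thinned shares of 12.7% (10.4% to 15.4%) and 16.4% (12.98% to 20.3%) against 1.01% to 8.92% (median depth before thinning 3579 UMIs, members 14195), and so did the other Ly6G-low cells, at 850 and 1016 CPM against 4.62 to 78.2 CPM.

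Ccl2, the chemokine ligand of CCR2, was at 59.1, 9.54, 7.37, 8.47, 6.39, 159 and 548 CPM. Hashtag 7 was highest (516 to 581 CPM by counting error), Hashtag 6 next and then Hashtag 1, at 6.13 times the median. The mean over the hashtags was 114 CPM, and 41.7 CPM without Hashtag 7, so Ccl2 passed the filter only through that hashtag. In the other Ly6G-low cells Ccl2 was at 376 and 457 CPM in Hashtags 6 and 7, 81.1 in Hashtag 4 and 1.42 to 20.1 CPM in the rest. In Hashtag 1 the UMIs were spread over 171 of 535 cells with 3% in the richest, whereas in Hashtags 6 and 7 the richest cell held 23%. Its neighbour Ccl7, another CCR2 ligand, had 0 to 6 UMIs in Hashtags 1 to 6 and 354 UMIs in Hashtag 7, all in 7 cells. Of 18 listed chemokine ligands only Ccl2, Ccl6 and Ccl9 reached the filter. Ccl6 ran from 758 to 1175 CPM and Ccl9 from 626 to 912 CPM, and neither was 2-fold from its median in any hashtag.

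Ccr1, a receptor for several CC chemokines, was at 299, 65.0, 59.8, 106, 129, 319 and 422 CPM. It passed 2-fold above the median in Hashtags 1, 6 and 7 and was 2.15 times below it in Hashtag 3. Its UMIs were found in 441 of 535 members in Hashtag 1 and 105 of 125 in Hashtag 7, so the level was spread over most cells. Ly6G-high cells held 636 to 941 CPM. Cx3cr1, the fractalkine receptor, went from 192 CPM in Hashtag 7 to 359 CPM in Hashtag 1, within 2-fold of the median. These 2 were the tested receptors of 15 listed beyond the rule.

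Of the 14 listed myeloid transcription factors, 11 were tested and 2, Hif1a among them, were called in some hashtag, against 2.02% of all tested genes. Klf4, a factor of monocyte differentiation, was lowest in Hashtags 6 and 7, at 85.2 and 84.2 CPM against 145 to 197 CPM elsewhere, and Rnase6, a secreted ribonuclease, at 85.2 and 97.8 against 157 to 202 CPM. Neither was 2-fold below its median.

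Hif1a, the oxygen-regulated transcription factor, stood at 134, 70.0, 59.8, 62.4, 78.9, 258 and 253 CPM. Both Hashtag 6 (3.27 times the median, 236 to 282 CPM) and Hashtag 7 lay above the rest, and Hashtag 1 was next. The other Ly6G-low cells (392 and 308 CPM against 56.2 to 112) and the Ly6G-high cells (281 and 257 CPM against 58.9 to 152) were highest in the same hashtags. It was the 1 gene called of 10 tested glycolysis and hypoxia genes (27 listed, the counts of Aldoa not analysed here). Ldha, which makes lactate, was at 350 and 385 CPM in Hashtags 6 and 7 and 170 to 229 CPM in the others, and Slc2a1, the glucose transporter GLUT1, at 57.9 and 59.2 against 13.8 to 25.3 CPM, under the filter. The list's median log2 ratio was 0.20 in both Hashtags 6 and 7 and -0.35 in Hashtag 3, where 6 of the 10 were at their lowest, against 17.9% of all tested genes. Promoter windows of 24 of these genes were found, and 17 of the 24 held the hypoxia response core ACGTG on either strand, which is also part of the E-box CACGTG, in 19 of 34 windows (55.9%) against 19.6% of all windows.

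In Hashtag 7 alone 9 genes were called above their median. Ctsl, a lysosomal cathepsin, was at 262 CPM against a median of 96.0, Lgmn (legumain) at 332 against 109, and Fcgr1, the high-affinity IgG receptor, at 343 against 140. Ms4a6d (649 CPM), Clec4e (238 CPM), Aif1 (180 CPM), Manf (276 CPM) and the chaperones Hspa5 (784 CPM) and Hsp90aa1 (323 CPM) completed them. All 9 were above the median in Hashtag 6 too, without reaching 2-fold. The share of all tested genes above the median there was not worked out, so this count stands without a background. Of the 9, Clec4e and Aif1 passed the filter only through Hashtag 7. Both hashtags had calls for Socs3, the feedback inhibitor of cytokine receptors (347 and 360 CPM, median 106), and for Srgn, the granule proteoglycan serglycin (1050 and 1382 CPM, median 463). Ifitm1 was called in both as well (362 and 199 CPM, median 71.8). Fabp5, a fatty acid binding protein, was called in Hashtag 6 alone (251 CPM), where 1 cell held 41% of its UMIs. The 12 macrophage markers summed to 3027 and 3090 CPM in Hashtags 6 and 7 and 1521 to 2313 CPM in the others. The part of macrophage transcripts in these calls was not tested.

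**Figure D4:**
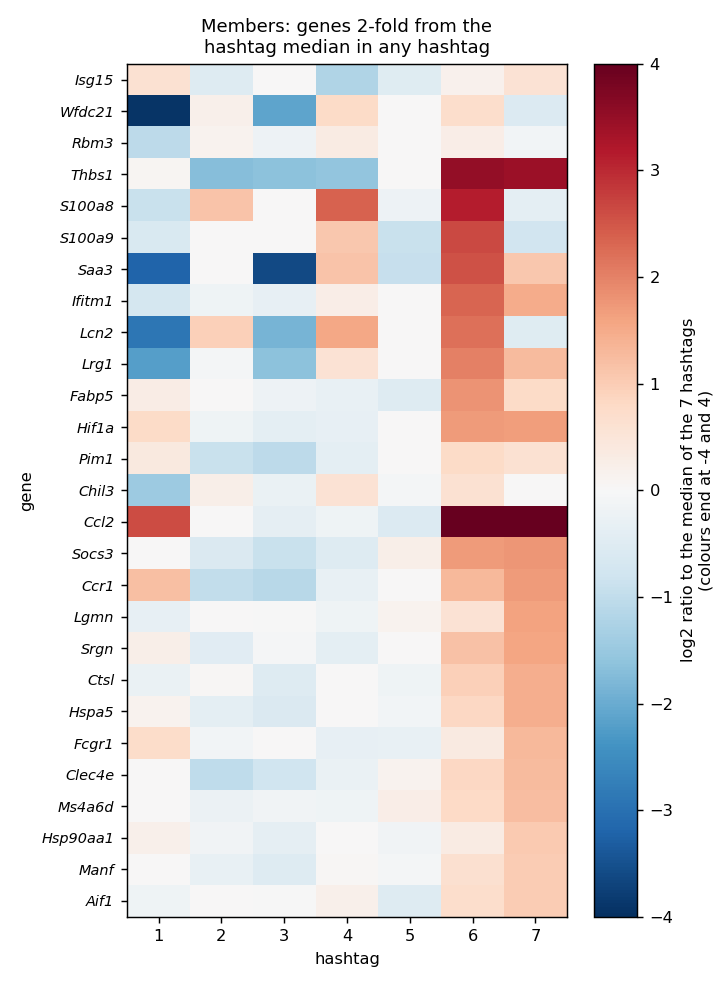
Log2 ratio to the median of the 7 hashtags (colour, ending at -4 and 4) in the members, for genes other than Camp (y axis) that lay 2-fold or more from it in any hashtag (x axis). Red columns at Hashtags 6 and 7 hold Thbs1, Ccl2, Hif1a and Ccr1, and the blue cells at Hashtags 1 and 3 include Saa3, Lcn2, Wfdc21 and Lrg1 in both, Chil3 and Rbm3 in Hashtag 1 and Thbs1, Ccr1 and Pim1 in Hashtag 3.

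Lcn2, Saa3, Wfdc21 and Lrg1 differed in another order. Lcn2, the siderophore-binding lipocalin, was at 23.4, 331, 47.6, 508, 172, 786 and 124 CPM. Hashtag 1 was 7.37 times below the median and Hashtag 3 was also called low, whereas Hashtag 4 was 2.95 times above it, with Lcn2 UMIs in 199 of 259 cells. In Hashtag 6 the Camp-rich barcode held 45% of the Lcn2 UMIs, and without it the level was 439 CPM. Saa3, serum amyloid A3, was at 10.98, 102, 8.26, 226, 53.0, 594 and 216 CPM, Wfdc21, a whey acidic protein family member, at 9.15, 161, 32.6, 239, 141, 229 and 96.3 CPM, and Lrg1, a secreted glycoprotein of TGF-beta signalling, at 19.99, 87.6, 29.9, 139, 92.8, 377 and 222 CPM. All 3 were lowest in Hashtags 1 and 3, where Lcn2 UMIs were found in 104 of 535 and 97 of 327 cells. Ly6G-high cells held 548 to 2670 CPM of Lcn2, with Hashtag 1 at 1550 and Hashtag 3 at 1998 CPM, so the members' 2 lowest hashtags were not the lowest there. The neutrophil markers' sum in the members was lowest in Hashtag 1 (1237 CPM). In Hashtag 3 it was 1697 CPM, the median of the hashtags, above 1548 CPM in Hashtag 5 and 1367 CPM in Hashtag 7. That marker list includes Lcn2, S100a8 and S100a9, so the sum is not independent of Lcn2. Its part in these values was not tested.

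S100a8 and S100a9, the calgranulin pair, were at 254, 1050, 472, 2429, 414, 4176 and 362 CPM and at 349, 530, 535, 1115, 283, 3305 and 312 CPM. Hashtag 4 was above the median for both, with S100a8 UMIs in 250 of 259 cells, and the richest cell held 11% of the S100a8 and 25% of the S100a9 UMIs. In Hashtag 6 the same Camp-rich barcode held 64% of the S100a8 and 82% of the S100a9 UMIs, and without it the levels were 1522 and 612 CPM. Ly6G-high cells had 26658 to 85188 CPM of S100a8, and the part of free neutrophil RNA was not tested. Of the 11 listed S100 and alarmin genes, 10 were tested and only these 2 were called, against 2.02% of all tested genes. Of the 10 progenitor granule genes, Lcn2 and Cd177 were tested beside Camp, and of these 2 Lcn2 was called.

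Chil3 varied most among the abundant classical monocyte genes. It was at 1830, 5828, 4118, 7438, 4736, 7535 and 4968 CPM, and Hashtag 1 (1799 to 1862 CPM) was 2.71 times below the median. Thinned to 2000 UMIs, 64.3% (60.1% to 68.4%) of Hashtag 1 members had a Chil3 UMI, with a median of 2 per cell, against 76.1% to 82.0% and medians of 6 to 14 in the others. The unthinned shares were 82.1% and 80.8% to 91.2%. Ly6G-high cells, at median depths of 3231 to 3909 UMIs before thinning, had thinned shares of 8.86% to 33.7%. Hashtag 1 was also lowest for Chil3 in the other Ly6G-low cells (715 CPM) and the Ly6G-high cells (210 CPM). Rbm3, the cold-induced RNA-binding protein, was the other broad gene called low in Hashtag 1, at 336 CPM against a median of 689. Among the other 16 tested classical genes none was 2-fold from its median in any hashtag: F13a1 spanned a factor of 1.41 and Ifi27l2a one of 1.97.

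Interferon-stimulated genes had their highest values in Hashtag 1 and their lowest in Hashtag 4. Of 9 tested (26 listed), 8 were highest in Hashtag 1, against 20.5% of all tested genes, and 7 were lowest in Hashtag 4, against 7.75%. The list's median log2 ratio was 0.61, -0.08, 0.45, -0.45, 0.00, -0.13 and 0.27 in Hashtags 1 to 7. With no filter on low values, 19 of the 26 were highest in Hashtag 1 and 23 of the 26 lowest in Hashtag 4. The shares over all genes without the filter were not worked out, so these counts stand without a background. Isg15 was at 217, 99.2, 142, 62.1, 102, 159 and 211 CPM, and its value in Hashtag 4 (54.6 to 70.5 CPM) was the 1 call, 2.28 times below the median. Irf7, the factor that sustains interferon production, ran from 78.1 CPM in Hashtag 4 to 203 in Hashtag 1, Bst2 from 146 to 308 CPM and Ifi204, a DNA sensor, from 186 to 390 CPM, in the same 2 hashtags. From the highest to the lowest hashtag the factor was 3.49 for Isg15, 2.60 for Irf7, 2.10 for Bst2 and 2.09 for Ifi204. Ifit1, under the filter, was at 10.3 CPM in Hashtag 4 and 49.7 CPM in Hashtag 1.

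The share of cells with an Isg15 UMI had the same extremes as the level. Thinned to 2000 UMIs, an Isg15 UMI was found in 24.7% (21.1% to 28.5%) of members of Hashtag 1, in 18.7% (14.6% to 23.3%) of Hashtag 3 and in 8.49% (5.40% to 12.6%) of Hashtag 4, whose interval overlapped neither of the former. Unthinned, these shares were 60.7%, 59.6% and 32.0%. The Ly6G-high cells of Hashtag 4 were also the lowest of their kind, at 12.6% (10.7% to 14.8%) against 20.4% to 26.8%. The members' share was above that of the Ly6G-high cells in Hashtag 1 (24.7% against 23.0%) and below it in the other hashtags. In Hashtag 2 it was 13.2% (9.26% to 18.0%) against 22.6% (20.3% to 25.1%), with no overlap. Hashtag 3 had 18.7% against 26.8% (24.2% to 29.6%), again with no overlap. The Ly6G-high cells are no Isg15-free cells, and the part of free RNA was not tested. In the other Ly6G-low cells Isg15 was at 101, 32.4, 63.5, 39.2, 56.4, 276 and 213 CPM, so the order there was another, with Hashtag 6 highest.

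**Figure D5:**
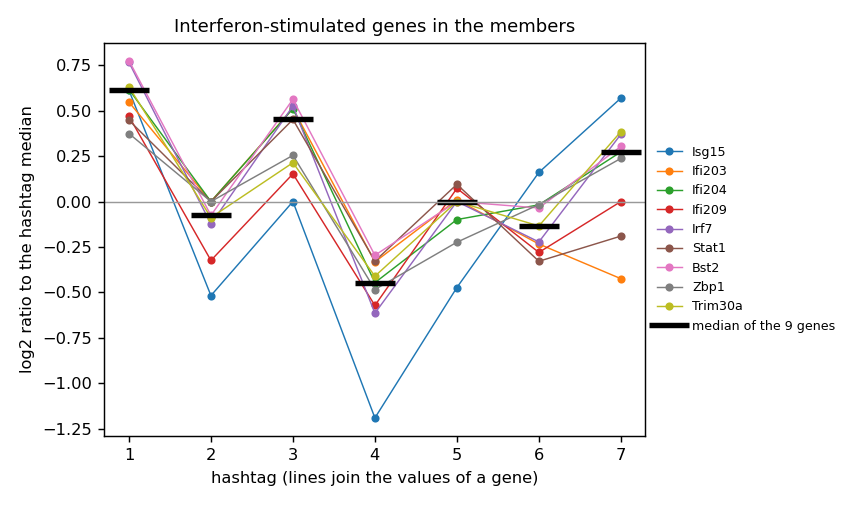
Log2 ratio to the median of the 7 hashtags (y axis) of the 9 tested interferon-stimulated genes in the members, by hashtag (x axis), with the median of the 9 genes as a black bar. The bar is at 0.61 in Hashtag 1, 0.45 in Hashtag 3 and -0.45 in Hashtag 4.

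Stress and early response genes were mostly highest in Hashtag 7. Of 6 tested heat shock genes 5 were highest in Hashtag 7 (18.4% of all tested genes were), with a list median of 0.68, and Hspa5 and Hsp90aa1 passed 2-fold. Of 8 tested immediate early genes 5 were highest there and none was called. Junb, an AP-1 subunit, was at 380, 277, 291, 297, 396, 619 and 674 CPM, and Klf2, a quiescence factor, ran the other way, from 705 CPM in Hashtag 3 to 282 in Hashtag 7. The 3 tested NF-kB feedback genes had a median of 0.70 in Hashtag 7 and no call. The NF-kB motif GGGNNTTCC (N for any base), on either strand, stood in 6 of 13 windows of 10 genes of that list (46.2%), against 5.82% of all windows.

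Inflammatory and repair cytokines were mostly scarce. Of 17 listed cytokines and growth factors 3 were tested across hashtags, Tgfb1, Tgfbi and Thbs1, and Thbs1 alone was called. Tgfbi, a matrix protein induced by TGF-beta, ran from 702 CPM in Hashtag 1 to 1753 in Hashtag 7, within 2-fold of the median. Il1b was at 47.0, 29.4, 42.6, 34.1, 54.9, 197 and 218 CPM, with thinned shares of 16.9% (10.7% to 25.0%) and 21.6% (14.7% to 29.9%) in Hashtags 6 and 7 and 4.63% to 8.77% in the others. Unthinned they were 43.2%, 55.2% and 29.3% to 36.8%. Since 79.3% to 93.4% of the Ly6G-high cells held an Il1b UMI at the same thinned depth and their Il1b level was 1909 to 3100 CPM, the part of free RNA in the members' shares was not tested. Vegfa had 1 to 11 UMIs per hashtag and Il10 was found in Hashtag 7 alone, at 2.01 CPM.

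Genes of reparative macrophages were found in few members. Arg1, which turns arginine into ornithine, had 2 to 13 UMIs in Hashtags 1 to 5, 108 UMIs from 8 cells in Hashtag 6 and 86 UMIs from 11 cells in Hashtag 7, with 52% and 42% in the richest cell. The thinned share of members with an Arg1 UMI was 1.69% (0.206% to 5.99%) and 2.40% (0.498% to 6.85%) in those hashtags. In the Ly6G-high cells it was 5.37% (3.83% to 7.30%) and 4.51% (2.74% to 6.96%), so the intervals overlapped. Unthinned, the members' share was 6.78% and 8.80%. The part of free RNA was not tested. Spp1 (osteopontin) was at 125 CPM in Hashtag 7, from 22 cells with 38% in the richest. In the other Ly6G-low cells of Hashtags 6 and 7 Arg1 was at 901 and 459 CPM and Spp1 at 631 and 799 CPM. C1qa, a macrophage complement gene, had 112 and 119 UMIs in Hashtags 6 and 7 from 9 and 11 cells, and 1 to 33 in the others. The arginine, polyamine and itaconate list had 2 tested genes, Sat1 and Oaz1, and no call.

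No call was made among the tested genes of 4 further lists: 5 MHC class II, 4 antioxidant, iron and metallothionein, 10 adhesion and trafficking and 2 cell cycle genes. Itga4, the CD49d transcript, ran from 239 CPM in Hashtag 7 to 442 in Hashtag 3, and Fth1, ferritin heavy chain, from 2553 to 4057 CPM, highest in Hashtag 7. Hmgb2 and Tubb5 were the only cell cycle genes above the filter, and Mki67 was at 1.50 to 8.17 CPM. Of 7 tested coagulation, fibrinolysis and matrix genes Thbs1 alone was called, and Vcan ran from 360 CPM in Hashtag 3 to 678 in Hashtag 6, within 2-fold of the median. Of 7 tested Fc, complement and scavenger receptors, Fcgr1 and Clec4e were called, against 2.02% of all tested genes. Clec4e passed the filter only through Hashtag 7, with a mean of 95.5 CPM without it, so its call is not read as a result on the list. Including Clec4e, 4 of the 7 were highest in Hashtag 7 (18.4% of all tested genes were). Since the filter favoured Clec4e there, that count is not read as a result on the list either. Tsc22d3, a glucocorticoid-induced gene, was among the 3 highest of Hashtag 3 at 253 CPM against 91.1 to 187 CPM elsewhere, with Ifi27l2a and Tmcc1. Slc25a4, the mitochondrial ATP carrier, in Hashtags 2 and 5 and Npm1, a nucleolar chaperone, in Hashtag 5 were among the 3 highest there at 1.27 to 1.44 times the median. Pim1, a kinase induced by cytokines, was the last of the 7 genes below the median in Hashtag 3 (log2 -1.04).

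Against the other Ly6G-low cells the lists moved as follows, as a description with median log2 ratios. The counts of called genes stand beside 0.27% called higher and 1.08% called lower among all tested genes. Coagulation, fibrinolysis and matrix genes were at 1.83 (1 of 7 called higher), progenitor granule genes at 0.87 (0 of 1), S100 and alarmin genes at 0.71 (0 of 10), interferon-stimulated genes at 0.53 (0 of 9) and chemokine ligands at 0.40 (0 of 3). Glycolysis and hypoxia genes were at 0.18, Fc, complement and scavenger receptors at 0.12 (1 higher and 1 lower of 9), cell cycle genes at 0.05, myeloid transcription factors at 0.02 and antioxidant, iron and metallothionein genes at -0.02. Chemoattractant receptors were at -0.05, cytokines and growth factors at -0.17, heat shock genes at -0.23 and arginine, polyamine and itaconate genes at -0.43. Adhesion and trafficking genes were at -0.55 (1 higher and 2 lower of 12), immediate early genes at -0.58 and NF-kB feedback genes at -0.68, each of the latter with no call.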

How the data were processed

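Droplet RNA and antibody UMI counts of 1 pool were used. The deposited matrix holds raw UMI counts per gene, hashtag and antibody, made by the authors with Cell Ranger 3.0.2 per the file headers, on mm10 per the submitters' processing notes. The annotation release and the cell caller are not given in the sources used here. UMI counts were summed per hashtag and group (python 3.11.15, numpy 2.4.6, scipy 1.17.1, pandas 2.3.3, matplotlib 3.10.9, Scrublet through scanpy 1.11.5) and given as CPM (UMIs per 1000000). Log2 ratios had 0.5 UMI added, and the filter was a mean of 100 CPM. Intervals are exact at 95% (Poisson or Clopper-Pearson) and cover counting error only. TMM factors came from edgeR 4.0.16 in R 4.3.3, for an alternative only. No test was run.

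The members, the gene lists and the marker lists were chosen with earlier results of these data known. Named genes were the 10 with the highest and 10 with the lowest ratio to the other Ly6G-low cells in their weakest hashtag, and per hashtag the 3 highest and 1 lowest against the median. To these came list genes with the widest range across hashtags or a described role. Mitochondrial, ribosomal, haemoglobin, immunoglobulin, Gm and Rik genes were left out. Other called genes were named after their values were seen. Sums were also simulated with Poisson counting error only. On 1396 to 1406 genes, 200 genes raised 3-fold in 1 hashtag were all recovered by the rule of 2-fold from the median (100% in each of 7 hashtags). Of 200 raised 1.5-fold, on 1425 to 1438 genes, 0% were. At these levels a cutoff of 2-fold largely fixes both outcomes. The draws hold no spread between cells, so they do not measure how reliable the calls are. Results of some genes and of an antibody are not reported here.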

Additional observations from a re-analysis of the deposited data

Results flagged for a closer look

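Some barcodes that entered no comparison met the other rules of the members. Of 1263 barcodes that passed the gene and mt- rules but had no clear hashtag, 390 were Ly6G-low, and 87 of these (22.3%) met the Ly6c2, Ccr2 and Csf1r rules. All 87 had a highest hashtag count under 3 times the second, and their median was 24327 UMIs against 14195 in the members.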

How the results depend on the processing

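Genes 2-fold higher in members in all 7 hashtags numbered 4, and genes lower 16. Leaving out 1 hashtag at a time gave 4 to 6 and 16 to 19, and a member share of 44.0% to 51.0% (44.0% without Hashtag 1, 49.2% with all). With 3 Ly6c2 UMIs as the minimum the share was 55.1%, 9 genes were higher, and Hashtags 5 and 7 had 1 and 3 genes below their median. With 10 UMIs it was 36.9%, with 1 gene higher and 10 lower, 0 above in Hashtag 5, and 2 and 1 below in Hashtags 6 and 7. With 10 per 10000 UMIs it was 28.4%, with 0 higher and 6 lower, 0 above in Hashtag 5 and 1 below in Hashtag 7. A Ly6G antibody limit of 2 left 0 above in Hashtag 5. At most 5% mt- UMIs gave 2 above in Hashtag 2, 0 above and 1 below in Hashtag 5 and 1 below in Hashtag 6. Cells weighted equally gave 7 higher and 26 lower, and 0, 1 and 0 above in Hashtags 2, 3 and 5. Cells thinned to 2000 UMIs gave 0, 1 and 0 above in Hashtags 2, 3 and 5, and 1, 4 and 8 below in Hashtags 2, 6 and 7.

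The filter on low values moved the counts furthest. At a mean of 20 CPM, 7 genes were higher and 63 lower. Hashtags 1, 2 and 3 had 16, 4 and 2 above and 15, 9 and 20 below, Hashtag 4 had 10 below, and Hashtags 5, 6 and 7 had 4, 61 and 94 above and 4, 4 and 21 below. With no filter 14 were higher and 189 lower, with 234, 800, 451, 592, 829, 1414 and 1065 above and 1759, 546, 891, 610, 557, 591 and 673 below in Hashtags 1 to 7. Scaling by TMM factors kept each of these counts within 1.5 times.

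Settings chosen after seeing the data were these. Without the richest cell of each gene 2 and 0 genes were above in Hashtags 2 and 5, 1 was below in Hashtag 6, and 11 and 15 were above in Hashtags 6 and 7. Without the Camp-rich barcode 0 were above in Hashtag 5. Without the deepest 10% of cells Hashtag 4 had 1 below, Hashtag 5 had 0 above and 1 below, and Hashtags 6 and 7 had 12 and 14 above. The sign of the weakest log2 ratio turned for Jchain with 3 Ly6c2 UMIs (5.99), 10 per 10000 UMIs (0.75), thinning (0.31) and without the deepest 10% (0.067), and for Retnlg with 10 per 10000 UMIs (0.74). The cause was not tested.

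The library is 1 pool, the sources used here pair none of the 7 hashtags with a condition, and Hashtags 6 and 7 hold 118 and 125 members, so no value has a replicate. Intervals cover counting error only. The alternative without Scrublet-marked barcodes was not run, since the caller marked too few. No paired analysis was possible because the hashtags carry no replicate number.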
